A study of Homo sapiens with 6 samples.

Results

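Ribosomes begin in the nucleolus, where RNA polymerase I transcribes the repeated rDNA genes into a long precursor that is cleaved, chemically modified and folded onto ribosomal proteins. Small nucleolar RNAs guide the modification, box C/D RNAs for methylation of the ribose and box H/ACA RNAs for pseudouridine, and a large set of GTPases, helicases and scaffold proteins assembles the small and the large subunit. The transcription factor MYC is a known activator of many of these genes, and plasma cells, which secrete antibody in bulk, depend on a high output of ribosomes.

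The genes described here are 43 nucleolar and RNA polymerase I genes, chosen by name from a list of factors of rRNA transcription, processing and subunit assembly. All 43 had a row in the table of 65529 rows, which held 21968 genes on rows with a single symbol. Each had 1 row, and 6 of the rows (those of TAF1D, NOP56, DKC1, GNL3, WDR74 and PPAN) also carried the symbols of other genes, mostly small nucleolar RNAs, so their signal cannot be assigned to the named gene alone.

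The cells were INA-6, an established multiple myeloma cell line grown with interleukin-6. They received UNC1999, an inhibitor of the histone methyltransferase EZH2, at 1 μM, or its inactive analog UNC2400 at 1 μM, for 120 h with fresh medium and compound at 72 h. Total RNA of 3 samples with UNC1999 and 3 with UNC2400 was hybridised to Affymetrix arrays. They are biological replicates by the labels, which do not say whether they were separate cultures, so p-values measure the spread between these samples. UNC2400 is the control by the labels, whereas the study's text names DMSO, and the groups follow the labels. All values are log2 expression values, and all differences are UNC1999 minus UNC2400 on that scale. Differences were tested with limma over all 65529 rows, and an adjusted p below 0.05 passed. The rows report mRNA of the factors, and rRNA itself was not analysed here. The row identifiers of the nucleolar genes have the form of junction identifiers. How much of a gene's mRNA such a row covers was not given in the sources used here. A difference is therefore that of the row, and whether it reflects the level of the whole gene or its splicing was not tested.

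Array medians lay between 4.83 and 4.86, and arrays of a group correlated at 0.9943 or more over all rows, against at most 0.988 between groups. Of 8 plasma cell markers, 7 were lower with UNC1999 and CD38 was higher (2.55-fold), and the 8 passed the test at row means of 5.52 to 9.96 (CD38 not without the first UNC1999 array or any 1 UNC2400 array). Of 12 markers of other blood and stromal cells, 11 were measured, with a mean level of 5.30 to 5.31 in the UNC1999 arrays and 5.22 to 5.26 in the UNC2400 arrays. The myeloid markers LYZ and CD14 and the platelet marker PPBP were below the array medians, and CD3D lay near them (4.77 to 4.87). The myeloid markers MPO (5.56 to 5.73) and CD68 (6.53 to 7.03) lay above the medians, as did HBB, COL1A1, COL1A2, VWF and CD3E. CD3E and CD68 passed as higher. The part of these marker differences in the results below was not tested. In bulk RNA, fewer cells of a type and less RNA per cell cannot be told apart.

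MYC, the activator named above, was measured at 7.87, 7.67 and 7.83 with UNC1999, against 9.06, 8.91 and 8.95 with UNC2400. The groups lay far apart for this gene, with a difference of -1.18 ± 0.06 (SE, n = 3 each), 2.27-fold lower (adjusted p = 0.00104). MYC and its partner MAX bind the E-box, whose palindromic form is CACGTG, and this motif was therefore looked up in the promoters of the nucleolar genes (RefSeq, GRCh38.p14, 250 bases before to 50 after the gene start). The motif reads the same on both strands. Promoters of 36 of the 43 genes were available. The E-box was found in 12 of 36 (33.3%), compared with 8.88% of 15843 protein-coding promoters and 11.3% of the 5910 promoters of genes whose row means lay in the range of the nucleolar genes (5.85 to 8.95). Of the 13 motifs found, 9 lay wholly after the start. The 6 windows printed here are a selection of the 13, in genes of the box C/D and box H/ACA particles and of both subunits. Of the motifs not printed, a second one of NOP10 lay 170 bases before the start. The others lay from 5 bases before the start to 35 after it. Starts are those of the promoter set, and for BYSL and PES1 they lie inside the gene span, not at its outer end. The E-box is in capitals, with the coordinates and strand on GRCh38.p14 before each sequence.
FBL, first E-box base 6 bases after the start, chr19:39846356-39846385, minus strand: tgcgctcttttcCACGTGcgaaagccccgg
NOP10, 11 bases before the start, chr15:34343130-34343159, minus strand: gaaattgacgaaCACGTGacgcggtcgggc
WDR43, 3 bases after the start, chr2:28894658-28894687, plus strand: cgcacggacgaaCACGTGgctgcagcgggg
UTP20, 10 bases before the start, chr12:101280083-101280112, plus strand: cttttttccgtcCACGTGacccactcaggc
GNL2, 3 bases after the start, chr1:37595917-37595946, minus strand: gtacgtcgtgcaCACGTGgtccggcgtggt
MRTO4, 14 bases after the start, chr1:19251807-19251836, plus strand: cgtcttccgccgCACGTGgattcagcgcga

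A window from 20 bases before to 50 after the start, chosen after the positions were seen, held 12 of the 13 motifs. By that window the share was 33.3% of the nucleolar promoters, against 1.89% of all protein-coding promoters and 2.57% of those in the same range of row means. With only the 250 bases before the start searched, the share dropped to 2 of 36 (5.56%), against 7.84% and 9.93%. By role, the motif was in 5 of 7 small subunit promoters and 5 of 11 large subunit promoters, and in 0 of 7 RNA polymerase I promoters and 0 of 5 of the multifunctional proteins. None of the 12 genes with an E-box passed the test (differences -0.31 to 0.12, median 0.02), compared with 8 of 24 without one (-0.46 to 0.43, median -0.02) and 30.1% of genes in the same range of row means. The count of 0 depends on the fit, since WDR43 and NOC3L, both with an E-box, passed without the third UNC1999 array (adjusted p = 0.00405 and 0.00398), NOC3L also with dim rows left out, and FBL passed after quantile normalization. Of the 8 genes that passed as lower, 6 had a promoter available, and NOLC1 and DDX18 did not, so their E-box status is unknown. The difference between genes with and without the motif was not tested. These are descriptions of letters in a window and not of binding.

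**Figure D1:**
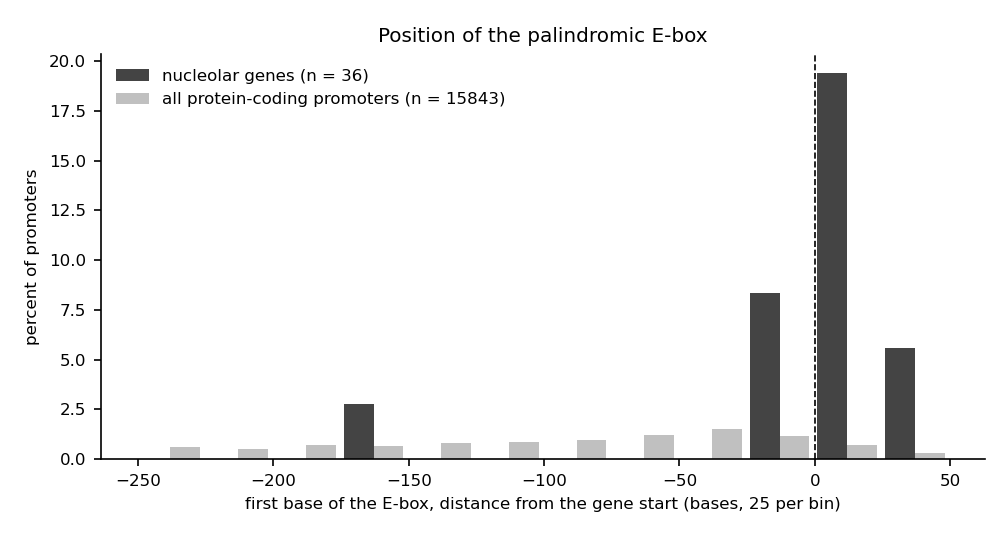
Share of promoters (y axis, percent) with the first base of CACGTG in each bin of 25 bases, by distance from the gene start in bases (x axis, dashed line at the start), for 36 nucleolar genes (dark) and 15843 protein-coding genes (light). The dark bars stand in the bin before the start and the bins after it, which hold 12 of the 13 motifs, and 1 motif lies 170 bases before the start.

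Most nucleolar genes did not pass the test after UNC1999 treatment. Of 43 genes, 8 were lower (18.6%), 2 were higher (4.65%) and 33 did not pass. Over all rows 9.39% passed, 4.4% lower and 4.99% higher, but dim rows pass less often, and among 8476 genes with row means in the same range 30.1% passed, 14.7% lower and 15.4% higher. The 10 nucleolar genes that passed, 23.3% of the 43, were a smaller share than that, while 8 of the 10 were lower. This lean depended on the fit. After quantile normalization 7 were lower and 4 higher. With the replicate number as a block in the fit, 2 were lower and 2 higher. In the fits with 1 array left out, 3 to 9 were lower and 2 higher. The median difference of the 43 was -0.03, against 0.01 over all rows and 0.03 over genes in the same range, with 23 of 43 differences below 0. The arrays of the groups did not overlap for 23 of the 43, compared with 27.7% of all rows and 54.0% of genes in the same range. With the cut-offs the study used, a raw p no higher than 0.02 and a 1.5-fold change, 0 of 43 passed, compared with 1.64% of all rows. By limma 20 of the 43 had an unadjusted p below 0.05, 9 higher and 11 lower. The share of all rows, or of genes in the same range, at that unadjusted cut-off was not counted. This count and the unadjusted counts of single lists below therefore have no background and cannot be read as an excess.

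The changes were small and the intervals narrow. The differences ran from -0.46 to 0.43. Of the 33 genes that did not pass, the 95% interval stayed within a 1.2-fold change either way for 29 and within 1.5-fold for 33. The mean of the 43 genes was 7.16, 7.14 and 7.21 in the UNC1999 arrays and 7.26, 7.21 and 7.22 in the UNC2400 arrays, so that the groups came closest to each other in replicate 3.

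**Figure D2:**
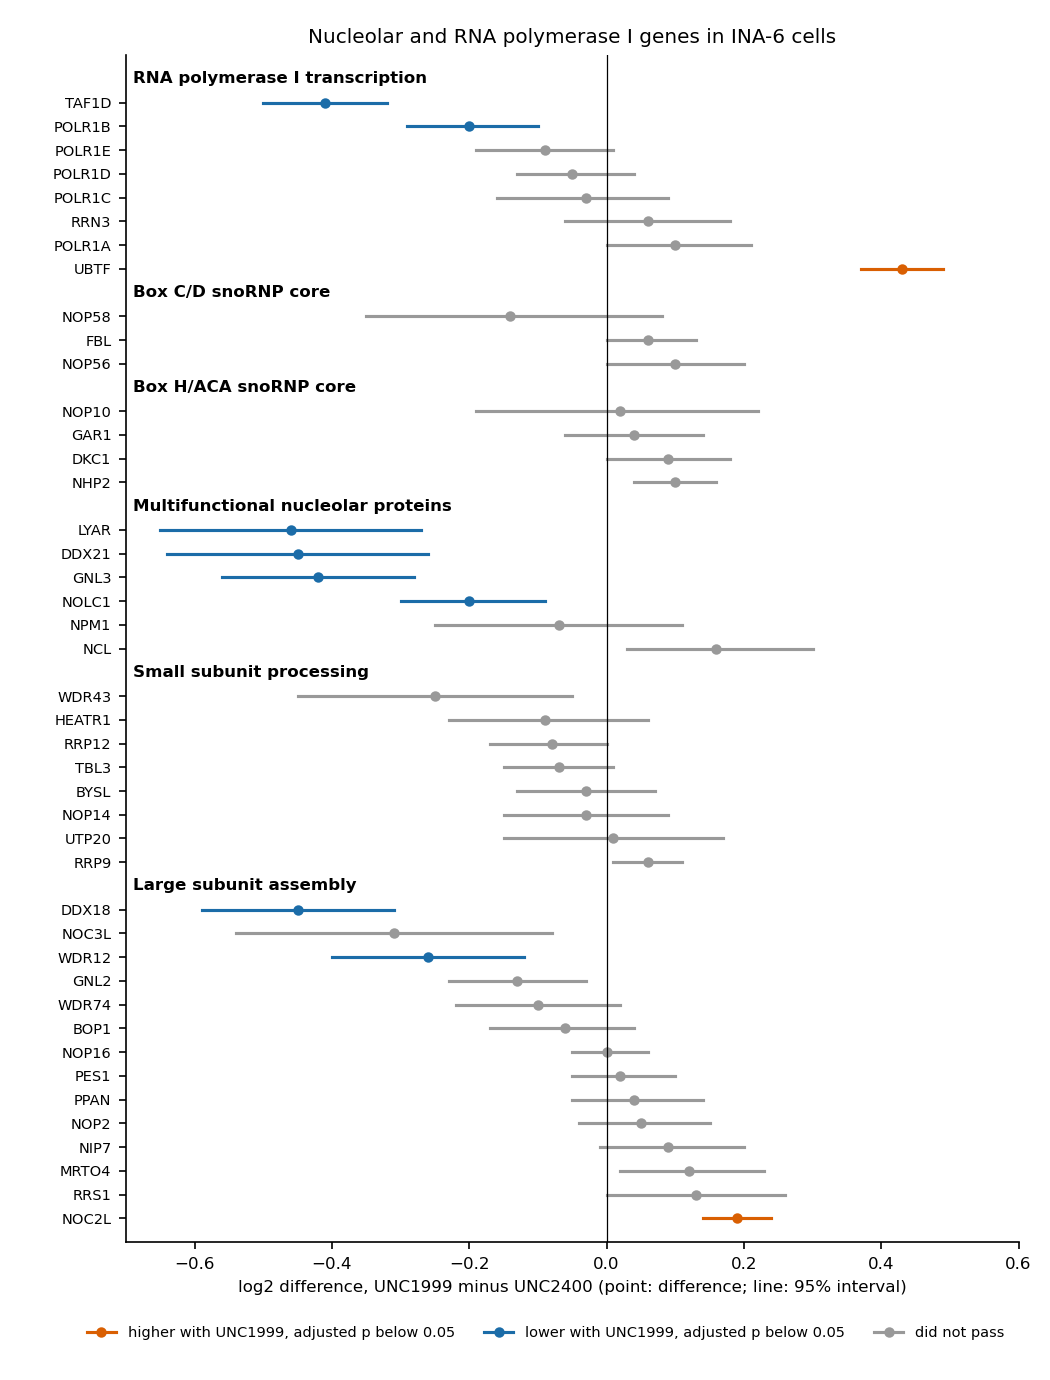
Log2 difference, UNC1999 minus UNC2400 (x axis), of each of the 43 genes (rows, by role), with points for the difference and lines for its 95% interval, n = 3 arrays each. The 8 genes that passed as lower (blue) reach -0.46, the 2 that passed as higher (orange) are UBTF at 0.43 and NOC2L at 0.19, and of the grey intervals of the other 33, 10 leave out 0 and the rest include it.

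Among the 8 genes of RNA polymerase I transcription, 2 were lower, 1 was higher and the median difference was -0.04. UBTF encodes the upstream binding factor that occupies active rDNA and starts assembly of the polymerase at the promoter. It was measured at 7.87, 7.81 and 7.90 with UNC1999, against 7.42, 7.43 and 7.43 with UNC2400. The 3 UNC2400 arrays were almost identical and the 3 UNC1999 arrays all lay above them. The difference was 0.43 ± 0.03 (SE), 1.35-fold higher (adjusted p = 0.0012, at most 0.00906 with any 1 array left out). TAF1D belongs to SL1, the complex that recognises the rDNA promoter together with UBTF. Its row gave 7.43, 7.47 and 7.55 with UNC1999, against 7.91, 7.86 and 7.91 with UNC2400. The groups were separate, with a difference of -0.41 ± 0.04, 1.33-fold lower (adjusted p = 0.00315). This row also carries 9 other symbols, of small nucleolar RNAs and a microRNA hosted by the gene, so the fall belongs to the row and not to the TAF1D transcript alone.

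Of the polymerase subunits in this role group, only POLR1B passed the test, at the mRNA level. POLR1B, the second largest subunit of the polymerase, had 6.37, 6.39 and 6.49 with UNC1999, against 6.65, 6.57 and 6.63 with UNC2400. Each UNC1999 array was below each UNC2400 array, by -0.20 ± 0.04 on average, 1.15-fold lower (adjusted p = 0.0358, passing with 1 array left out only without the third UNC1999 array, and 0.0538 with eBayes set to trend and robust). POLR1A, the largest subunit and the catalytic core, had 7.07, 7.03 and 7.08 with UNC1999, against 6.99, 6.87 and 7.01 with UNC2400, with a difference of 0.10 ± 0.04 that did not pass (adjusted p = 0.223). POLR1C and POLR1D, shared with RNA polymerase III, and POLR1E differed by -0.03, -0.05 and -0.09. RRN3, which joins the polymerase to the promoter complex, differed by 0.06 (95% interval -0.06 to 0.18). None of these 4 passed. Of 13 other genes of the RNA polymerase I machinery, 2 passed, both lower and both subunits shared among nuclear RNA polymerases, namely POLR2H (1.19-fold, adjusted p = 0.00797) and POLR2K (1.22-fold, adjusted p = 0.0347). After quantile normalization the split turned to 1 lower and 2 higher, and with dim rows left out it was 2 lower and 1 higher. At an unadjusted p below 0.05, 3 were higher and 3 lower. The biggest difference of the list was that of POLR2L, another shared subunit, named here after its values were seen, which had 8.40, 8.28 and 8.20 with UNC1999, against 8.06, 7.85 and 8.08 with UNC2400. The POLR2L groups did not overlap, but the difference of 0.30 ± 0.08 did not pass (adjusted p = 0.084). The median of the 13 was -0.01, and 1 or 2 were lower with 1 array left out.

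No core protein of the modification particles passed the test, although FBL and NHP2 passed as higher after quantile normalization. FBL, the methyltransferase of the box C/D particle, had 8.85, 8.83 and 8.83 with UNC1999, against 8.80, 8.72 and 8.80 with UNC2400, a difference of 0.06 ± 0.03 (adjusted p = 0.249). Its scaffold partner NOP56, on a shared row, had 7.86, 7.80 and 7.79 with UNC1999, against 7.78, 7.64 and 7.72 with UNC2400 (0.10 ± 0.04, adjusted p = 0.221). For NOP58, the other scaffold protein, the values were 8.51, 8.58 and 8.74 with UNC1999, against 8.71, 8.89 and 8.63 with UNC2400. The NOP58 groups overlapped, and the difference of -0.14 had an interval of -0.35 to 0.08.

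The box H/ACA particle holds the pseudouridine synthase DKC1 and its partners GAR1, NHP2 and NOP10, and the same proteins stabilise the telomerase RNA. The 4 differences were between 0.02 and 0.10. NHP2 had 6.60, 6.59 and 6.56 with UNC1999, against 6.53, 6.48 and 6.46 with UNC2400 (0.10 ± 0.02, adjusted p = 0.0666). DKC1, on a shared row, had 7.62, 7.63 and 7.74 with UNC1999, against 7.59, 7.59 and 7.55 with UNC2400 (0.09 ± 0.04, adjusted p = 0.243). These groups did not overlap, although the distance between them was small. GAR1 and NOP10 overlapped between the groups, with differences of 0.04 (interval -0.06 to 0.14) and 0.02 (interval -0.19 to 0.22). At an unadjusted p below 0.05, limma gave 1 of 3 box C/D genes and 1 of 4 box H/ACA genes, both higher.

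Of the 6 multifunctional nucleolar proteins, 4 were lower, with a median difference of -0.31, although only 1 was without the first or second array of either group. DDX21 is an RNA helicase that acts in rRNA transcription and processing. It had 8.05, 8.02 and 8.23 with UNC1999, against 8.61, 8.62 and 8.43 with UNC2400, 1.37-fold lower (-0.45 ± 0.08, adjusted p = 0.0209). GNL3, or nucleostemin, is a GTPase of proliferating cells that shuttles between nucleolus and nucleoplasm. On a row shared with a small nucleolar RNA it had 7.11, 7.10 and 7.26 with UNC1999, against 7.61, 7.63 and 7.50 with UNC2400, 1.34-fold lower (-0.42 ± 0.06, adjusted p = 0.00969). LYAR, a zinc finger protein of the nucleolus, had 6.93, 6.97 and 7.20 with UNC1999, against 7.47, 7.56 and 7.46 with UNC2400, 1.38-fold lower (-0.46 ± 0.08, adjusted p = 0.0195). In all 3 genes the groups were separate and the third UNC1999 array was the closest to the UNC2400 arrays. The call of GNL3 held with each array left out in turn (adjusted p at most 0.0461), whereas LYAR passed only without the third UNC1999 array (otherwise up to 0.0821) and DDX21 only without the third array of either group (otherwise up to 0.0824).

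NOLC1, a chaperone of small nucleolar particles, had 7.45, 7.42 and 7.50 with UNC1999, against 7.72, 7.67 and 7.58 with UNC2400. Its groups were separate by a smaller distance, -0.20 ± 0.04 or 1.15-fold (adjusted p = 0.0451, and passing with 1 array left out only without the third UNC2400 array, and 0.076 with trend and robust eBayes). The abundant proteins of the group did not pass. NCL, or nucleolin, which binds pre-rRNA, differed by 0.16 (interval 0.03 to 0.30, adjusted p = 0.15). NPM1, or nucleophosmin, the scaffold of the outer nucleolus, differed by -0.07 (interval -0.25 to 0.11, adjusted p = 0.681).

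**Figure D3:**
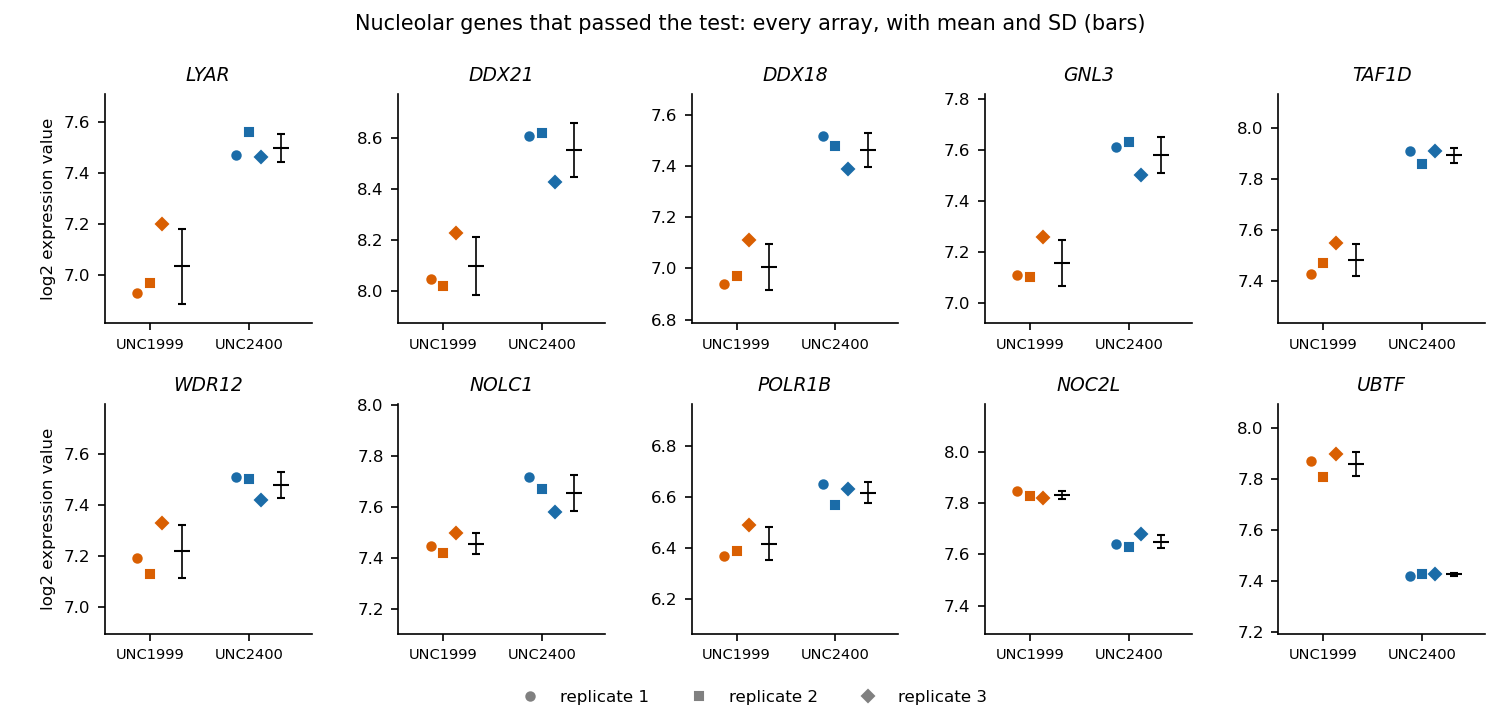
Log2 expression value (y axis, each panel spanning the same range) of the 10 genes that passed the test, in the 3 UNC1999 arrays (orange) and the 3 UNC2400 arrays (blue), with marker shapes for replicate numbers and black bars for mean and SD. In the 8 genes that were lower, replicate 3 is the highest UNC1999 array, and in no panel do the groups overlap.

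None of the 8 factors of small subunit processing passed in limma, and 2 had an unadjusted p below 0.05, 1 higher and 1 lower. WDR43, a scaffold of the processome that forms on nascent pre-rRNA, had 7.63, 7.61 and 7.90 with UNC1999, against 7.99, 7.97 and 7.93 with UNC2400. The first and second UNC1999 arrays were low and the third nearly reached the UNC2400 range, giving -0.25 ± 0.08 (adjusted p = 0.135). Without that array the difference was -0.34 (adjusted p = 0.00405). RRP9, a protein of the U3 particle that directs early cleavage, had 6.46, 6.49 and 6.44 with UNC1999, against 6.40, 6.39 and 6.43 with UNC2400 (0.06 ± 0.02, adjusted p = 0.179). RRP12, which helps export the small subunit precursor, differed by -0.08 (6.23, 6.14 and 6.19 with UNC1999, against 6.27, 6.22 and 6.32 with UNC2400) and TBL3 of the processome by -0.07 (6.62, 6.58 and 6.50 with UNC1999, against 6.64, 6.62 and 6.63 with UNC2400). HEATR1, NOP14, BYSL and UTP20 differed by -0.09 to 0.01.

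Of 14 large subunit factors, 2 were lower and 1 was higher, with a median of 0.01. DDX18, an RNA helicase, had 6.94, 6.97 and 7.11 with UNC1999, against 7.52, 7.48 and 7.39 with UNC2400. These groups were well separated, with DDX18 1.37-fold lower (-0.45 ± 0.06, adjusted p = 0.00814, at most 0.0435 with 1 array left out). WDR12 forms the PeBoW complex with PES1 and BOP1, which is needed to mature the large subunit rRNA. WDR12 had 7.19, 7.13 and 7.33 with UNC1999, against 7.51, 7.50 and 7.42 with UNC2400, 1.2-fold lower (-0.26 ± 0.06, adjusted p = 0.0434, passing with 1 array left out only without the third UNC1999 array, and 0.0579 after quantile normalization). The other two members of the complex differed by 0.02 for PES1 (interval -0.05 to 0.10) and -0.06 for BOP1 (interval -0.17 to 0.04), and a test of unequal change within the complex was not made.

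NOC2L, which pairs with other NOC proteins on the large subunit precursor and is also known as an inhibitor of histone acetyltransferases, had 7.85, 7.83 and 7.82 with UNC1999, against 7.64, 7.63 and 7.68 with UNC2400. Both groups were tight and apart, 1.14-fold higher with UNC1999 (0.19 ± 0.02, adjusted p = 0.00536, at most 0.0314 with 1 array left out). Its relative NOC3L, singled out after its values were seen, had 5.85, 5.85 and 6.17 with UNC1999, against 6.31, 6.23 and 6.25 with UNC2400. The third UNC1999 array again stood near the UNC2400 arrays, and the difference of -0.31 ± 0.09 did not pass (adjusted p = 0.116), while without that array it was -0.41 (adjusted p = 0.00398). GNL2, a GTPase of large subunit export, had 8.0, 7.97 and 7.93 with UNC1999, against 8.17, 8.08 and 8.04 with UNC2400 (-0.13 ± 0.04, adjusted p = 0.115). The remaining 7 factors, among them the rRNA methyltransferase NOP2 and the stalk assembly factor MRTO4, differed by -0.10 to 0.13 and did not pass.

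The third UNC1999 array was the highest of its group in 24 of 43 nucleolar genes (55.8%) and in 8 of the 8 that were lower, compared with 42.9% of genes in the same range of row means. In 6 of those 8 the third UNC2400 array was also the lowest of its group, compared with 16 of the 43 (37.2%) and 25.5% of genes in the same range. The 8 were picked by this same contrast, and these shares were not tested. Of the 10 genes that passed, 5 did so with each array left out in turn (UBTF, TAF1D, NOC2L, GNL3 and DDX18), and the number of lower genes was 3 to 9 across these fits, 9 without the third UNC1999 array and 3 without the first or second array of either group. With the replicate number as a block in the limma fit, 2 of the 43 were lower and 2 higher, and GNL3 did not pass (adjusted p = 0.0546).

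Related gene lists beyond the 43 differed in their counts of lower and higher genes. Among genes in the row-mean range of the 43, 14.7% were lower and 15.4% higher. The small subunit list had smaller shares (10.2% and 8.16%), as did the ribosomal proteins (11.1% lower, none higher). The large subunit list had 21.7% lower and 2.17% higher, and the exosome list 26.7% lower and none higher. The RNA polymerase III list lay above both shares. The lists also hold rows outside that range, and no list was tested against these shares. Of 49 other small subunit factors, 5 were lower, led by DDX10 (1.36-fold, adjusted p = 0.00479), WDR36 (1.29-fold, adjusted p = 0.00829) and WDR3 (1.27-fold, adjusted p = 0.00885), and 4 were higher, led by IMP4 (1.16-fold, adjusted p = 0.00953), DHX37 (1.11-fold, adjusted p = 0.0156) and RRP36 (1.32-fold, adjusted p = 0.0175). Of 46 other large subunit factors, 10 were lower and 1 higher. The lower genes with the smallest p were TMA16 (1.40-fold, adjusted p = 0.000739), the export adaptor NMD3 (1.47-fold, adjusted p = 0.0054) and URB1 (1.22-fold, adjusted p = 0.00542), and the higher gene was the helicase DDX56 (1.16-fold, adjusted p = 0.0254). Without the first or second UNC1999 array or the first UNC2400 array, 4 of this list were lower, and without the third UNC1999 array 12. In the small subunit list the lower count was 3 without the second UNC1999 array, the first UNC2400 array or the third UNC2400 array, and 8 without the third UNC1999 array, and the higher count was 1 without the first UNC2400 array and 2 without the first UNC1999 array. The higher count of the large subunit list was 1 without the first or second UNC2400 array and 0 without any other 1.

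RSL24D1, a placeholder for a ribosomal protein on the large subunit precursor and named here after its values were seen, had the biggest difference of the other large subunit factors. It had 7.30, 7.25 and 7.41 with UNC1999, against 8.29, 8.42 and 8.02 with UNC2400, 1.89-fold lower (adjusted p = 0.00659).

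The nuclear exosome trims rRNA precursors from the end, and its list here also holds cofactors and the separate nuclease XRN2. This list had 4 of 15 genes lower and 0 higher, among them the nuclease DIS3 (1.37-fold, adjusted p = 0.012), EXOSC7 (1.14-fold, adjusted p = 0.0177) and EXOSC5 (1.36-fold, adjusted p = 0.0293). At an unadjusted p below 0.05, 5 exosome genes were lower and 1 was higher. The exosome count fell to 0 without the second UNC1999 array and was 2 or 3 with any other array left out. RNA polymerase III, which makes the 5S rRNA and tRNAs, had 4 of 20 lower, led by POLR3D (1.47-fold, adjusted p = 0.00132), POLR3E (1.21-fold, adjusted p = 0.0106) and the 5S factor GTF3A (1.22-fold, adjusted p = 0.0214). It also had 5 higher, led by CRCP (1.16-fold, adjusted p = 0.0175), GTF3C6 (1.24-fold, adjusted p = 0.0184) and BRF1 (1.09-fold, adjusted p = 0.0206). These 5 include MAF1 (1.14-fold, adjusted p = 0.0258), which regulates the polymerase and is not a part of it. With 1 array left out the RNA polymerase III counts were 1 to 5 lower and 0 to 5 higher, the lowest of both without the second UNC1999 array. Of 72 cytosolic ribosomal protein genes, 19 of them on shared rows, 8 were lower and 0 higher, with a median of -0.08, including RPL26 (1.13-fold, adjusted p = 0.00775), RPL5 (1.18-fold, shared row, adjusted p = 0.0104) and RPL9 (1.23-fold, adjusted p = 0.0216). In that list 24 genes had an unadjusted p below 0.05 in the lower direction and 1 in the higher, and between 1 (without the second UNC1999 array) and 6 (without the third UNC2400 array) passed as lower with 1 array left out.

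**Figure D4:**
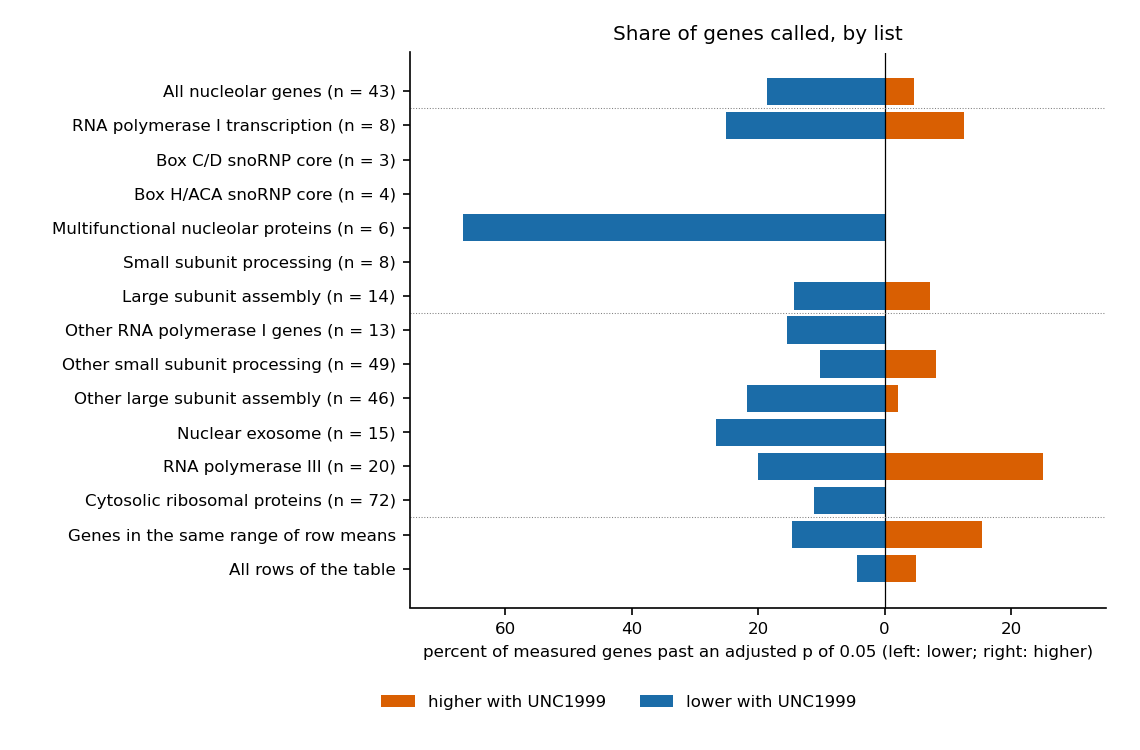
Percent of measured genes that passed an adjusted p of 0.05 (x axis), with bars to the left for lower and to the right for higher with UNC1999, for all 43 nucleolar genes, their 6 role groups, other lists of the pathway, genes in the same range of row means and all rows. The left bar of the multifunctional proteins stands for 4 of 6 genes, and the right bar of RNA polymerase III for 5 of 20.

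Introns of several of these genes encode small nucleolar RNAs, which are released from the spliced intron. By position in the RefSeq gene table, where strand was not checked, 38 small RNA genes lay inside 11 of the 43 genes. Of these, 18 were annotated to the row of the host gene and 12 had rows of their own, in NCL, NOP58, WDR43, GNL3 and PPAN. In limma 1 of the 12 passed, as lower, and 0 as higher, compared with 12.7% (10.1% lower and 2.61% higher) of 268 rows annotated only with small nucleolar RNAs. At an unadjusted p below 0.05 there were 5 lower and 1 higher.

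SNORD11, a box C/D RNA within NOP58, had 5.53, 5.56 and 5.16 with UNC1999, against 6.64, 6.58 and 6.31 with UNC2400. The groups were separate, 2.13-fold lower with UNC1999 (-1.09 ± 0.14, adjusted p = 0.00835, at most 0.0362 with 1 array left out), while the NOP58 row itself differed by -0.14. Beside it, SNORD70 differed by -1.0 (interval -1.75 to -0.26, adjusted p = 0.114) and SNORD11B by -0.41 (adjusted p = 0.137). The difference between host and small RNA was not tested.

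NCL held 2 small RNAs with large but variable differences, given here after their values were seen. SNORD82 had 8.33, 8.42 and 7.15 with UNC1999, against 9.48, 9.39 and 8.79 with UNC2400 (-1.25, interval -2.21 to -0.30, adjusted p = 0.121). SNORA75 went the other way, with 6.38, 6.45 and 5.82 with UNC1999, against 5.67, 5.59 and 5.45 with UNC2400 (0.65, interval 0.22 to 1.08, adjusted p = 0.0843). In both the third array was the lowest of its group. Over the 12 rows the third UNC1999 array was the lowest of its group in 11 (91.7%), compared with 76.9% of the 268 small nucleolar RNA rows. The third UNC2400 array was the lowest of its group in 9 of the 12 (75.0%), compared with 36.2% of the 268. Without the third UNC1999 array SNORA75 passed (adjusted p = 0.00575), as did SNORD70 (0.0263) and SNORD19 in GNL3 (0.043).

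**Figure D5:**
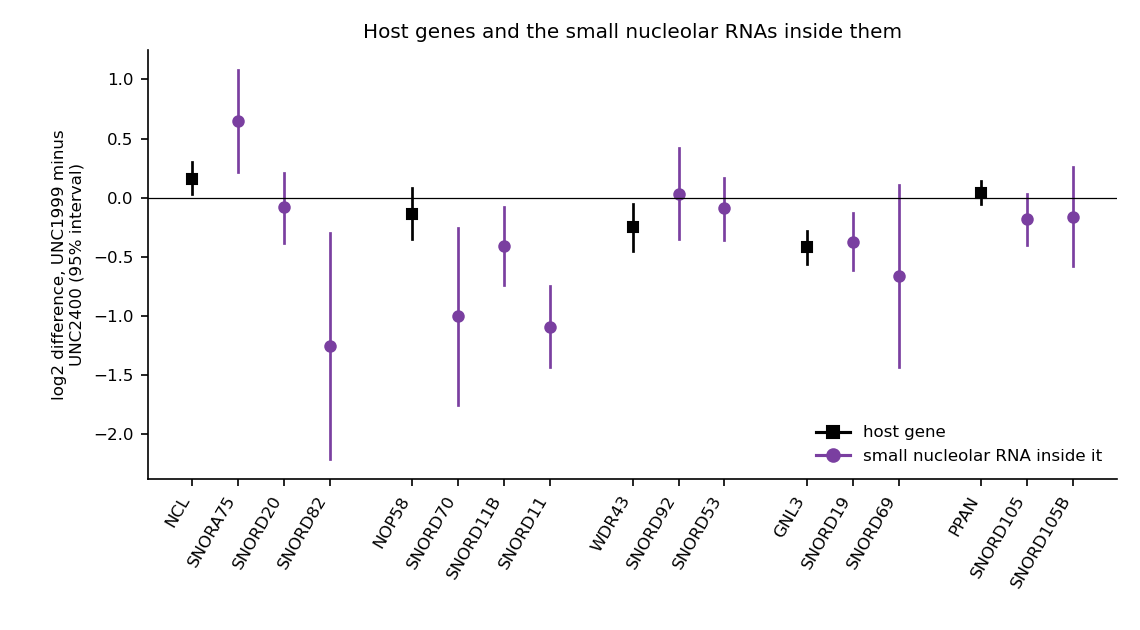
Log2 difference, UNC1999 minus UNC2400 (y axis), with 95% intervals as lines, of 5 host genes (black squares) and of the 12 small nucleolar RNAs inside them that had rows of their own (purple circles), n = 3 arrays each. SNORD11 at -1.09 lies well under its host NOP58 at -0.14, and the intervals of the small RNAs are wider than those of the hosts.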

How the data were processed

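Total RNA of 6 samples was measured on Affymetrix arrays. The authors deposited log2 expression values, 1 per row and array, already normalized, and the study's methods name GeneSpring. How the probes were summarised, background-corrected and normalized, and on which genome build, was not given in the sources used here. Rows were named through the platform's probe annotation (23129 with 1 symbol, 1221 with several, 41179 with none). Differences were tested with limma (version 3.58.1, R 4.3.3; lmFit and eBayes, group only, two-sided) with Benjamini-Hochberg adjustment over all 65529 rows and a threshold of 0.05. The fit was tested on simulated data. The study names a moderated t-test without saying whether it was paired.

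The 43 genes, the role groups and the other lists were chosen with earlier results of these data known. Values per array are given for up to 4 genes of a role group with the smallest p and for MYC, and other lists are named by up to 3 genes in each direction. A gene with several rows was represented by the row with the highest mean. Range-matched genes had a single symbol and a row mean between the lowest and highest of the 43. Promoters are RefSeq's. Alternatives were cyclic loess, quantile normalization, dim rows left out, trend and robust eBayes, a replicate block, the study's thresholds, shared rows left out, each array left out and a shorter promoter window. Log2 values near background understate folds, and the number of arrays, 3 per group, limits the precision.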

Additional observations from a re-analysis of the deposited data

How the results depend on the processing

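No called difference changed sign under the alternatives run. Of all rows, 3273 were higher and 2881 lower, against 453 and 619 at the study's thresholds, and 1486 to 3657 higher and 1428 to 2856 lower with 1 array left out. Among the 43 genes 2 were higher, with 4 after quantile normalization (FBL and NHP2 added), 0 at the study's thresholds and 2 in each fit with 1 array left out. The number of lower genes was 8, with 6 under trend and robust eBayes, 0 at the study's thresholds and 3 to 9 with 1 array left out. The median difference of the 43 was -0.03, and -0.05 to 0.00 with 1 array left out. With only the bases before the start searched, the E-box share was 5.56% instead of 33.3%. The series' design text describes a comparison of both compounds for every biological replicate, while the labels tie no replicate number to a common culture or date. Over all rows, the deviations of same-numbered arrays correlated at 0.0554, 0.0834 and -0.0121. UNC1999 replicates 1 and 2 correlated best with their own number, and replicate 3 did not. Such weak correlations over all rows, dim ones included, cannot exclude pairing. The main fit left the numbers unpaired because the labels do not tie them. With the replicate number as a block, 2162 rows were higher, and 2 of the 43 genes were higher and 2 lower. GNL3 (adjusted p = 0.0546), LYAR (0.0575), POLR1B (0.0643), DDX21 (0.0894), NOLC1 (0.123) and WDR12 (0.127) did not pass with the block, and SNORD82 (0.0298) and SNORD11B (0.016) passed beside SNORD11 (0.00634). The number of arrays and signal near background limit the detection of small changes.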
